A study of Mus musculus with 14 samples.

Results

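The comparison set a reverted mouse embryonic stem cell line at passage 30 (rES passage 30) against blastocyst-derived embryonic stem cells (ESC). Its members were 4 libraries chosen by their labels, 2 of rES passage 30 and 2 of ESC, out of 14 libraries in 7 groups. The rES line was made from epiblast stem cells (EpiSC), carried the genotype label CD1-deltaTSIX/JF1, and was kept in LIF, serum replacement (KSR) and KO-DMEM with 25 µM MM401. ESC carried the genotype label CD1/JF1 and grew with LIF in GMEM with 15% KSR and feeder cells, which the labels name for ESC alone. LIF and KSR were thus shared by both groups. Line, genotype label, basal medium and MM401 differed between them by the labels. Passage is given for rES passage 30 but not for ESC, and feeder cells for ESC but not for rES passage 30. Whether these differed is therefore not known. The parts of all these factors cannot be told apart in this comparison. The same line at passage 30 without MM401 (2 libraries) is given beside the comparison where it bears on the inhibitor. Passage 6, EpiSC and the early reversion groups are given where a level needs a second reference. By the labels EpiSC grew with 20% KSR, so this reference differs in medium as well. The early reversion groups were kept with LIF and 100 µM MM401 to day 3 (MM401 day 3) or to passage 2 at day 6 (MM401 passage 2). The labels do not say how many clones the line holds, what deltaTSIX covers, or whether the duplicates of a group came from separate cultures. The p-values therefore cover the spread between these libraries, which may be technical.

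Naive pluripotent cells correspond to the epiblast of the blastocyst and depend in culture on LIF, which acts through STAT3, whereas primed cells correspond to the epiblast after implantation and depend on FGF and activin. Naive female cells keep both X chromosomes active, and their DNA is less methylated than that of primed cells. MM401 is a peptidomimetic that blocks the contact of MLL1 (gene Kmt2a), a histone H3 lysine 4 methyltransferase, with its partner WDR5.

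The 4 libraries held 23677089 and 21105310 counts in rES passage 30, against 22527090 and 21050377 counts in ESC. Log2 CPM, counts scaled to library size, of the duplicates had a Pearson r of 0.9924 across genes in rES passage 30 and 0.9936 in ESC. The chi-square of the duplicates' counts over genes, divided by its degrees of freedom and near 1 for counting error alone, was 16.61 in rES passage 30, or 4.35 without the ribosomal RNA precursor Rn45s, and 1.28 in ESC. Rn45s took 0.548% and 2.005% of the counts of the rES passage 30 libraries, against 0.592% and 0.598% of those of ESC. Fibroblast markers were lower in the reverted line, with 22 of 23 called lower and 1 (Postn) higher, and their summed level was 4085.9 and 4060.5 CPM in rES passage 30, against 11907.0 and 11860.1 CPM in ESC. None of these markers was at 0 in either group. Macrophage genes (9 of 9, chosen after their values were seen) summed to 77.1 and 78.7 CPM in rES passage 30, against 433.2 and 445.0 CPM in ESC. In such bulk RNA, fewer cells of a type and less RNA per cell cannot be told apart. Several abundant genes with near-identical copies had very low counts in every library, such as Gapdh at 7.17 and 6.03 CPM in rES passage 30, against 8.41 and 8.22 CPM in ESC, so genes with such copies are uncertain here.

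Most genes differed between the groups, many of them by little. Fitted on all 14 libraries, edgeR's quasi-likelihood test in its robust form called 11554 of 16247 genes at a Benjamini-Hochberg adjusted p under 0.05 (71.1%). Of these, 5736 were higher in rES passage 30 (35.3%) and 5818 were lower (35.8%). The median log2 fold change over all genes was -0.011, with its 10th percentile at -1.31 and its 90th at 1.12, and 5168 of the called genes differed by less than 1.5-fold. Genes that were called and at least 2-fold higher numbered 1740 (10.7%), and those at least 2-fold lower 2039 (12.6%). With about 7 in 10 genes called, a count of called genes in a list says little by itself, so the counts below are to be read with the list's median log2 fold change and the number past 2-fold. Values after ± are standard errors of a log2 fold change, n is 2 libraries in each group, and "rose", "fell", "higher" and "lower" describe rES passage 30 relative to ESC for called genes.

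The naive pluripotency genes were at or above their ESC level in most cases. Of 22 genes tested, 14 rose (7 at least 2-fold) and 6 fell (2 at least 2-fold), with a median log2 fold change of 0.54. Klf4, a Krüppel-like transcription factor of the naive network, had 726.7 and 664.0 CPM in rES passage 30, against 182.5 and 180.0 CPM in ESC (1.94 ± 0.04, adjusted p = 2.2e-33). Prdm14, which restrains FGF signalling and DNA methylation in naive cells, had 216.6 and 214.8 CPM in rES passage 30, against 59.8 and 59.7 CPM in ESC (1.85 ± 0.05). Tbx3, a T-box factor downstream of LIF, had 711.5 and 646.4 CPM in rES passage 30, against 270.7 and 269.2 CPM in ESC (1.33 ± 0.04). All 3 genes had both reverted-line libraries well above both ESC libraries. Dppa2 had 92.9 and 101.8 CPM in rES passage 30, against 36 and 36.7 CPM in ESC (1.42 ± 0.06). Mael, a piRNA pathway gene that is also active in naive cells, had 25.9 and 26.3 CPM in rES passage 30, against 7.19 and 6.57 CPM in ESC (1.92 ± 0.12).

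The naive genes that fell were few. Zfp42, the Rex1 gene that is often used as a naive reporter, had 83.9 and 83.4 CPM in rES passage 30, against 271.1 and 272.3 CPM in ESC (-1.70 ± 0.04). Dppa3, which protects maternal methylation marks in the zygote, had 4.91 and 5.84 CPM in rES passage 30, against 17.6 and 18.7 CPM in ESC (-1.76 ± 0.14). Both were at least 3-fold lower in the reverted line, whereas the other 4 that fell, Klf2, Nr5a2, Dppa4 and Stat3, had log2 fold changes between -0.53 and -0.25. Esrrb and Tfcp2l1, a pair of central naive factors, were a little higher. Esrrb had 1147.2 and 1134.4 CPM in rES passage 30, against 941.3 and 938.7 CPM in ESC (0.28 ± 0.03), and Tfcp2l1 had 1443.5 and 1482.4 CPM in rES passage 30, against 1003.2 and 996.9 CPM in ESC (0.55 ± 0.04). For Klf5 and Fgf4 no difference was detected, at 0.079 ± 0.07 and -0.045 ± 0.04.

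**Figure D1:**
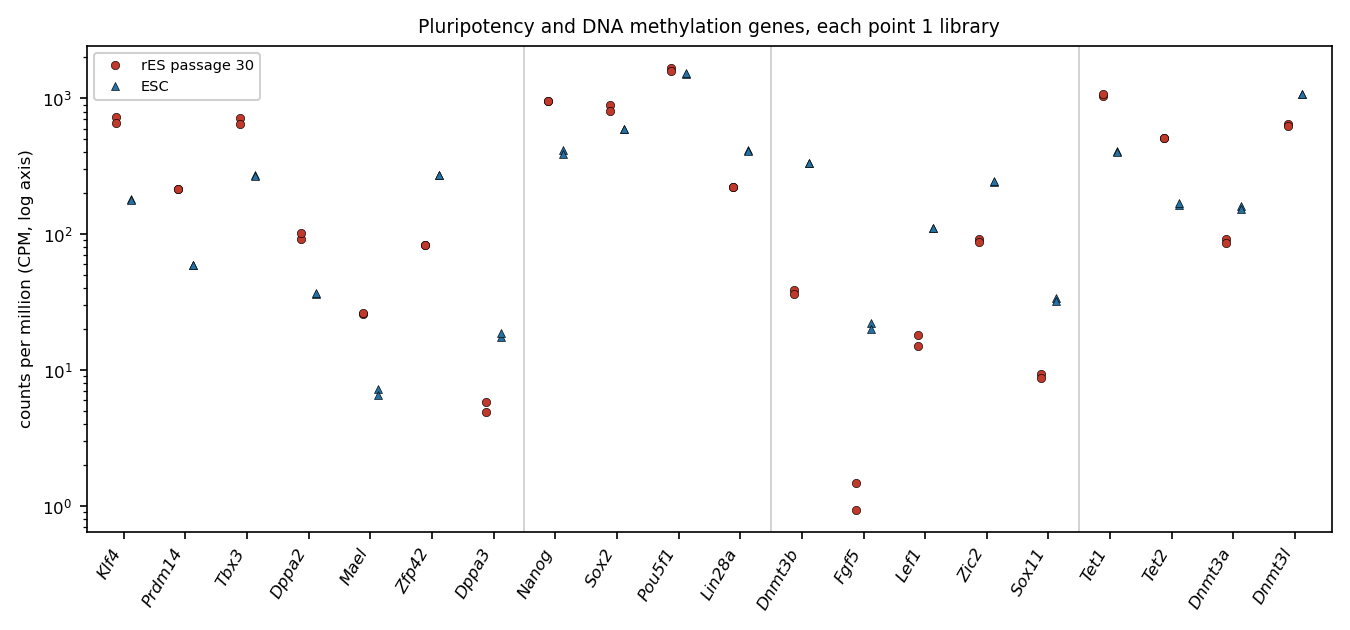
CPM of pluripotency and DNA methylation genes in each library, on a log axis, with rES passage 30 and ESC side by side for each gene (2 points each). The points of Klf4, Prdm14, Tbx3, Nanog, Tet1 and Tet2 lie higher in rES passage 30, those of Zfp42, Dppa3, Dnmt3b, Fgf5 and Lef1 lie lower, and those of Pou5f1 nearly coincide.

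Among the factors shared by naive and primed cells, 6 of 12 rose and 5 fell, with a median log2 fold change of 0.09. Nanog rose most, with 951.9 and 957.7 CPM in rES passage 30, against 414.1 and 390.9 CPM in ESC (1.25 ± 0.04). Sox2 had 901.2 and 812.8 CPM in rES passage 30, against 596.7 and 598.3 CPM in ESC (0.52 ± 0.04). Pou5f1, which encodes Oct4, had 1685.3 and 1596.6 CPM in rES passage 30, against 1517.8 and 1550.1 CPM in ESC (0.10 ± 0.04, adjusted p = 0.015). That difference is slight and rests on the processing, since its log2 fold change was -0.028 when genes that follow the feeder markers were left out, and it was not called when rES passage 30 replicate 1 (0.047) or ESC replicate 1 (0.082) was left out. Tdgf1, the Nodal co-receptor Cripto, had 682.4 and 720.1 CPM in rES passage 30, against 387.8 and 391.9 CPM in ESC (0.85 ± 0.04). Lin28a, an RNA-binding protein that blocks let-7 maturation and increases as cells leave the naive state, had 222.6 and 223.4 CPM in rES passage 30, against 414.2 and 406.4 CPM in ESC (-0.88 ± 0.04).

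Primed pluripotency genes were mostly lower than in ESC. Of 20 tested, 15 fell (11 at least 2-fold) and 5 rose (1 at least 2-fold), with a median log2 fold change of -1.35. Dnmt3b, a de novo DNA methyltransferase, had 38.9 and 36 CPM in rES passage 30, against 336.2 and 334.3 CPM in ESC (-3.16 ± 0.05, 8.94-fold lower). Fgf5, a marker of the epiblast after implantation, had 0.939 and 1.46 CPM in rES passage 30, against 22 and 20.2 CPM in ESC (-4.15 ± 0.22). Lef1, a Wnt effector that appears on priming, had 15.1 and 18.2 CPM in rES passage 30, against 110.3 and 110.6 CPM in ESC (-2.74 ± 0.07). In each case both reverted-line libraries lay far below both ESC libraries. Zic2 had 91.4 and 88.3 CPM in rES passage 30, against 240.5 and 247.9 CPM in ESC (-1.44 ± 0.05), and Sox11 had 9.34 and 8.76 CPM in rES passage 30, against 34.1 and 32 CPM in ESC (-1.87 ± 0.09). Otx2, which drives the exit from the naive state, was only slightly lower, with 97.7 and 101.4 CPM in rES passage 30, against 111.5 and 110.0 CPM in ESC (-0.15 ± 0.05). Those that rose included Sox3, Etv4 and Fgf15, and the secreted Wnt modulator Sfrp2 rose most (2.34 ± 0.08), with 57.3 and 55.9 CPM in rES passage 30, against 11.8 and 10.5 CPM in ESC.

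**Figure D2:**
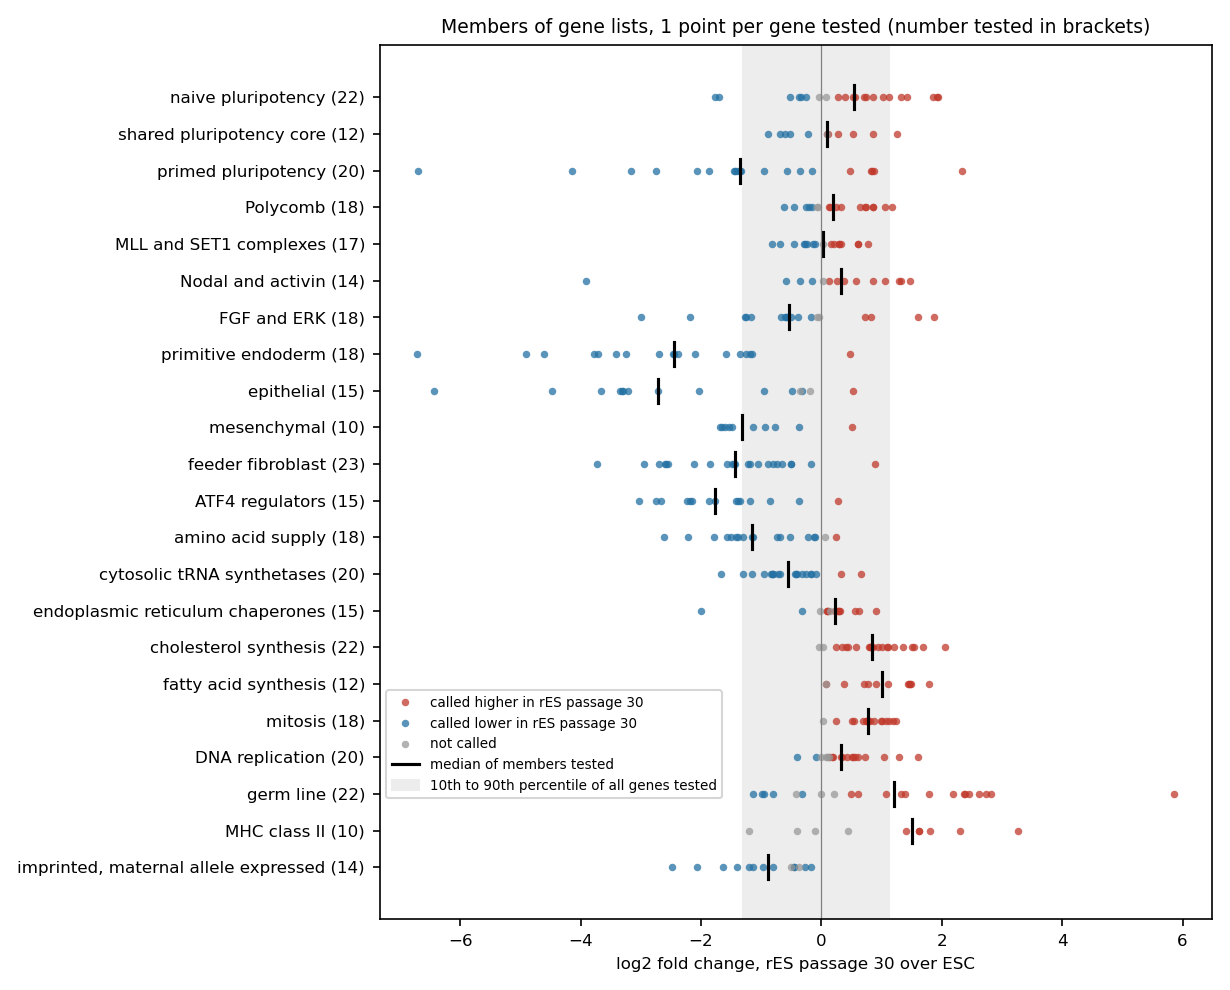
Log2 fold change of each tested member of 22 gene lists, rES passage 30 over ESC, 1 point per gene, with a tick at the list median and a grey band from the 10th to the 90th percentile of all genes tested (-1.31 to 1.12). Epithelial genes, primitive endoderm genes and ATF4 regulators have medians well below the band, at -2.71, -2.45 and -1.77, and the germ line and MHC class II lists have medians above it, at 1.20 and 1.51.

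DNA methylation enzymes and demethylases moved in opposite directions. Each de novo methylation gene fell, with Dnmt3a at 91.9 and 86.8 CPM in rES passage 30, against 160.7 and 154.0 CPM in ESC (-0.82 ± 0.05), and the catalytically inactive cofactor Dnmt3l at 642.7 and 630.5 CPM in rES passage 30, against 1068.8 and 1074.7 CPM in ESC (-0.75 ± 0.03), beside Dnmt3b above. The 3 TET dioxygenases, which oxidise 5-methylcytosine, all rose. Tet1 had 1049.6 and 1079.8 CPM in rES passage 30, against 410.8 and 405.6 CPM in ESC (1.38 ± 0.04), Tet2 had 513.8 and 514.2 CPM in rES passage 30, against 165.1 and 168.5 CPM in ESC (1.62 ± 0.04), and Tet3 had 48.3 and 47.7 CPM in rES passage 30, against 37.7 and 36.1 CPM in ESC (0.38 ± 0.07). Maintenance genes differed little. Dnmt1 had 524.4 and 503.2 CPM in rES passage 30, against 586.1 and 572.0 CPM in ESC (-0.17 ± 0.03), and for Uhrf1, its partner at replicated DNA, no difference was detected (0.051 ± 0.04). Both calls change with a correction for GC content, after which Dnmt1 was not called (-0.035) and Uhrf1 was called higher (0.187). Over the 13 tested genes of this list, 7 rose, 4 fell and the median log2 fold change was 0.34.

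The genes of the MLL and SET1 complexes, to which the target of MM401 belongs, showed no difference of 2-fold or more, with 8 of 17 higher, 8 lower and a median log2 fold change of 0.03. Kmt2a itself had 165.9 and 164.8 CPM in rES passage 30, against 162.0 and 162.4 CPM in ESC (0.028 ± 0.05, adjusted p = 0.6). It was called only after correction for GC content, at 0.139. Wdr5, the shared subunit, had 536.5 and 545.6 CPM in rES passage 30, against 357.8 and 358.1 CPM in ESC (0.60 ± 0.03). Among the other methyltransferases, Kmt2c was higher (0.78 ± 0.04) and Setd1b lower (-0.82 ± 0.05), with 106.1 and 97 CPM in rES passage 30, against 179.6 and 180.5 CPM in ESC. In the Polycomb list 11 of 18 rose and 5 fell, with a median of 0.19. Suz12, a core subunit of the complex that methylates histone H3 lysine 27, had 598.8 and 614.2 CPM in rES passage 30, against 330.4 and 338.1 CPM in ESC (0.86 ± 0.04), and Rnf2, the ubiquitin ligase of Polycomb repressive complex 1, had 190.6 and 203.4 CPM in rES passage 30, against 92.3 and 96.6 CPM in ESC (1.06 ± 0.04). Cbx2, a chromodomain subunit of that complex, had 68 and 62.9 CPM in rES passage 30, against 30.7 and 27.3 CPM in ESC (1.17 ± 0.07).

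Genes that report on growth factor signalling went in different directions by pathway. In the FGF and ERK list 12 of 18 fell (5 at least 2-fold) and 4 rose, with a median log2 fold change of -0.54. Spry2, an ERK feedback inhibitor, had 97.9 and 99.8 CPM in rES passage 30, against 240.4 and 237.7 CPM in ESC (-1.27 ± 0.04). Dusp4, an ERK phosphatase, had 71.5 and 65.7 CPM in rES passage 30, against 155.4 and 154.1 CPM in ESC (-1.17 ± 0.06). Fgfr2, the receptor used by primitive endoderm, had 4.39 and 4.53 CPM in rES passage 30, against 19.3 and 21.1 CPM in ESC (-2.18 ± 0.13). Of the 4 members that rose, 2 were at least 2-fold higher, the immediate early genes Egr1 and Fos. Etv4 was also among the 4. Egr1 had 144.1 and 142.4 CPM in rES passage 30, against 46.6 and 47.9 CPM in ESC (1.60 ± 0.05), and Fos had 25.9 and 27.5 CPM in rES passage 30, against 7.23 and 7.39 CPM in ESC (1.87 ± 0.09). In the full immediate early list of 12 genes, 3 rose and 6 fell, Jun among these 6 with 45 and 37.4 CPM in rES passage 30, against 93.7 and 96.5 CPM in ESC (-1.20 ± 0.06).

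Nodal signalling genes were more often higher, with 9 of 14 up (4 at least 2-fold), 4 down and a median of 0.32. The targets and feedback inhibitors Lefty1 and Lefty2 both rose. Lefty1 had 353.1 and 314.9 CPM in rES passage 30, against 132.9 and 132.9 CPM in ESC (1.33 ± 0.04), and Lefty2 had 647.4 and 624.5 CPM in rES passage 30, against 228.7 and 228.1 CPM in ESC (1.48 ± 0.04). Smad7, an intracellular inhibitor of the pathway, had 293.8 and 267.3 CPM in rES passage 30, against 133.6 and 136.6 CPM in ESC (1.06 ± 0.04). The ligand Nodal itself was slightly lower, with 89.5 and 90.7 CPM in rES passage 30, against 114.4 and 114.9 CPM in ESC (-0.35 ± 0.04), and the activin antagonist Fst was 15.1-fold lower, with 8.92 and 9.05 CPM in rES passage 30, against 138.0 and 132.6 CPM in ESC (-3.91 ± 0.08). In the BMP list 7 of 13 fell and 5 rose, with a median of -0.43. Bmp4, a ligand, had 13.4 and 12.2 CPM in rES passage 30, against 61.4 and 57.1 CPM in ESC (-2.21 ± 0.09), whereas the inhibitory Smad6 had 38.2 and 32.2 CPM in rES passage 30, against 5.88 and 6.81 CPM in ESC (2.48 ± 0.11).

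In the LIF and STAT3 list, 8 of 14 fell and 5 rose, with a median of -0.42. Stat3 had 132.4 and 129.1 CPM in rES passage 30, against 187.4 and 189.9 CPM in ESC (-0.53 ± 0.04). Socs3, its feedback inhibitor and target, had 101.5 and 90.5 CPM in rES passage 30, against 166.8 and 163.2 CPM in ESC (-0.78 ± 0.05). Pim1, a kinase gene induced by STAT3, rose, with 314.7 and 286.6 CPM in rES passage 30, against 135.3 and 141.2 CPM in ESC (1.12 ± 0.04). The largest difference of the list was in the oncostatin M receptor Osmr, with 12.5 and 12.2 CPM in rES passage 30, against 70.7 and 67.9 CPM in ESC (-2.49 ± 0.07). Without the 2216 genes that follow the feeder markers over the 14 libraries (Pearson r over 0.7), 10 members were left, of which 4 rose and 4 fell. Here and below, leaving these genes out does not take fibroblast RNA out of the others, so it cannot decide the part of that RNA. In the Wnt list 9 of 19 fell and 5 rose, with a median of -0.42. Sp5, a direct Wnt target, had 0.171 and 0.389 CPM in rES passage 30, against 5.47 and 4.45 CPM in ESC (-4.17 ± 0.45), Axin2 had 23.5 and 19.4 CPM in rES passage 30, against 33.7 and 34.5 CPM in ESC (-0.67 ± 0.10), and for Ctnnb1, which encodes β-catenin, no difference was detected (-0.055 ± 0.03). The Wnt effector Tcf7 rose, with 108.5 and 112.3 CPM in rES passage 30, against 52.4 and 52.9 CPM in ESC (1.07 ± 0.05), as did Notum, which inactivates Wnt proteins, with 70.8 and 65.3 CPM in rES passage 30, against 30.2 and 30.8 CPM in ESC (1.16 ± 0.07). In the retinoic acid list 10 of 18 fell and 4 rose, with a median of -0.35, and 7 were called (2 higher, 5 lower of 12) without the genes that follow the feeder markers. Cyp26a1, which degrades retinoic acid and is induced by it, had 2.26 and 1.9 CPM in rES passage 30, against 25.1 and 21.7 CPM in ESC (-3.49 ± 0.18). The largest difference of the list went the other way, in Stra8 (5.86), which is given with the germ line genes below. Of the members that rose 3 were at least 2-fold higher, and of those that fell 7 were at least 2-fold lower.

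Primitive endoderm genes were the lineage list with the most members lower in the reverted line. Of 19 genes 18 passed the filter on low counts, 17 fell, each at least 2-fold, and the median log2 fold change was -2.45. Cubn, an endocytic receptor of visceral endoderm, had 0.597 and 0.292 CPM in rES passage 30, against 49.9 and 45.8 CPM in ESC (-6.71 ± 0.22). Lrp2, its megalin partner, had 6.44 and 6.03 CPM in rES passage 30, against 155.2 and 149.8 CPM in ESC (-4.61 ± 0.09). The transcription factor genes followed, with Gata4 at 4.86 and 3.41 CPM in rES passage 30, against 56.1 and 58.8 CPM in ESC (-3.78 ± 0.13), Sox17 at 2.09 and 1.56 CPM in rES passage 30, against 23.7 and 24.5 CPM in ESC (-3.71 ± 0.19), and Foxa2 at 0.256 and 0.487 CPM in rES passage 30, against 11.3 and 10.8 CPM in ESC (-4.91 ± 0.36). Gata6, the earliest factor of the lineage, was the only member that rose, with 43.9 and 41.8 CPM in rES passage 30, against 32.3 and 29.2 CPM in ESC (0.48 ± 0.09). The basement membrane genes of the list fell as well. Lama1, a laminin chain, had 113.4 and 113.3 CPM in rES passage 30, against 1204.6 and 1206.9 CPM in ESC (-3.41 ± 0.04), and Col4a1 had 282.9 and 258.0 CPM in rES passage 30, against 1473.5 and 1480.5 CPM in ESC (-2.45 ± 0.04). The summed level of the list was 2434.8 and 2399.1 CPM in rES passage 30, against 8190.0 and 8202.7 CPM in ESC. EpiSC, whose feeder markers summed to 8006.9 and 8063.9 CPM, had 2477.4 and 2499.8 CPM for the primitive endoderm list. MM401 day 3, with feeder markers at 8612.3 and 8556.4 CPM, had 3284.5 and 3209.2 CPM for that list. MM401 passage 2, with feeder markers at 22771.7 and 22222.5 CPM, had 5273.3 and 5119.6 CPM. The part of fibroblast RNA in the difference was not tested. Without the genes that follow the feeder markers, 12 of 13 members were called lower, but that setting leaves fibroblast RNA in the genes kept.

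Other lineage lists held weaker or mixed differences. Trophectoderm had 8 of 14 lower and 3 higher (median -0.5). Neuroectoderm had 5 of 10 tested genes lower and 3 higher (13 listed, median -0.95). Mesoderm had 5 of 10 tested genes lower and 1 higher (12 listed, median -0.65). Cdx2, which specifies trophectoderm, was low in both groups and lost its call without replicate 1 of either (-2.20 each), with 0.0853 and 0.146 CPM in rES passage 30, against 0.814 and 0.532 CPM in ESC. T, the Brachyury gene of nascent mesoderm, had 0.853 and 0.73 CPM in rES passage 30, against 3.25 and 3.38 CPM in ESC (-2.06 ± 0.30), and Sox1, an early neural factor, had 7.93 and 7.3 CPM in rES passage 30, against 4.29 and 4.45 CPM in ESC (0.80 ± 0.14). Levels of all 3 were low in every library of the comparison.

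Epithelial and mesenchymal genes were both lower. In the epithelial list 12 of 15 fell (9 at least 2-fold), 1 rose and the median log2 fold change was -2.71. Esrp1, an epithelial splicing regulator, had 1.37 and 0.535 CPM in rES passage 30, against 84.4 and 85.9 CPM in ESC (-6.44 ± 0.14). Grhl2, a grainyhead-like factor of epithelia, had 23.1 and 22.4 CPM in rES passage 30, against 147.3 and 151.4 CPM in ESC (-2.71 ± 0.07), and the tight junction gene Cldn6 had 2.47 and 2.63 CPM in rES passage 30, against 53.8 and 60.1 CPM in ESC (-4.48 ± 0.12). Cdh1, which encodes E-cadherin, differed much less, with 206.1 and 204.6 CPM in rES passage 30, against 290.3 and 285.0 CPM in ESC (-0.49 ± 0.04). Krt8, Krt18 and Krt19 had log2 fold changes of -3.31 ± 0.11, -3.66 ± 0.09 and -3.29 ± 0.11, and Krt8 and Krt18 have processed copies elsewhere in the genome that could take reads. In the mesenchymal list 9 of 10 fell and only Zeb1 rose (0.50 ± 0.06), with Vim at 420.1 and 412.5 CPM in rES passage 30, against 1305.2 and 1304.9 CPM in ESC (-1.65 ± 0.03). This list moves with the feeder markers (all but 3 of its genes follow them, and 2 of those 3 were lower and 1 higher), and the part of fibroblast RNA in it was not tested.

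Genes of the amino acid response formed a second group with a large shift. ATF4 is a transcription factor whose translation increases when the initiation factor eIF2α is phosphorylated, as in amino acid shortage or endoplasmic reticulum stress, and it activates genes for amino acid import and synthesis and for tRNA charging. Of 15 ATF4 regulators and stress targets, 14 fell (12 at least 2-fold), 1 rose and the median log2 fold change was -1.77. Atf4 RNA had 377.2 and 386.4 CPM in rES passage 30, against 871.0 and 872.4 CPM in ESC (-1.19 ± 0.03). Trib3, a pseudokinase that feeds back on ATF4, had 18.6 and 17.9 CPM in rES passage 30, against 151.0 and 147.7 CPM in ESC (-3.03 ± 0.06). Chac1, a glutathione-degrading enzyme, had 19.3 and 19.5 CPM in rES passage 30, against 132.1 and 127.4 CPM in ESC (-2.74 ± 0.07). All 3 genes showed duplicates that lay close together within each group. Ddit3, which encodes CHOP, had 11.3 and 12.1 CPM in rES passage 30, against 55.5 and 54.2 CPM in ESC (-2.23 ± 0.08), and Sesn2, a leucine sensor upstream of mTORC1, had 90.7 and 77 CPM in rES passage 30, against 372.4 and 373.2 CPM in ESC (-2.15 ± 0.05). Ppp1r15a, the stress-induced eIF2α phosphatase subunit, was the only member that rose, with 108.8 and 98.3 CPM in rES passage 30, against 86.2 and 85.2 CPM in ESC (0.27 ± 0.05).

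Amino acid supply and tRNA synthetase genes fell as well, by less. In the supply list 16 of 18 fell (10 at least 2-fold) and 1 rose, with a median of -1.15. Slc7a5, the light chain of the large neutral amino acid transporter, had 215.0 and 208.1 CPM in rES passage 30, against 739.6 and 722.3 CPM in ESC (-1.79 ± 0.04), and its heavy chain Slc3a2 had 233.9 and 230.1 CPM in rES passage 30, against 515.5 and 510.2 CPM in ESC (-1.14 ± 0.04). Slc6a9, a glycine transporter, had 5.67 and 5.3 CPM in rES passage 30, against 32.7 and 34.4 CPM in ESC (-2.61 ± 0.11). Psat1, of serine synthesis, had 178.3 and 183.5 CPM in rES passage 30, against 443.5 and 446.5 CPM in ESC (-1.30 ± 0.04). These 4 genes differed by more than 2-fold. Asns, the asparagine synthetase gene that is a standard ATF4 target, differed little, with 712.3 and 720.9 CPM in rES passage 30, against 765.7 and 765.5 CPM in ESC (-0.10 ± 0.03). Of 20 cytosolic tRNA synthetases 18 fell (3 at least 2-fold) and 2 (Dars and Qars) rose, with a median of -0.56. Sars had 201.8 and 201.2 CPM in rES passage 30, against 640.4 and 644.3 CPM in ESC (-1.67 ± 0.04), and Nars had 303.5 and 309.9 CPM in rES passage 30, against 681.9 and 677.6 CPM in ESC (-1.15 ± 0.04). In the list of threonine, glycine and folate metabolism 7 of 13 genes fell and 5 rose, with a median of -0.17. The mitochondrial folate enzymes Mthfd2, Mthfd1l, Shmt2 and Aldh1l2 fell, with Mthfd2 at 95.2 and 89.9 CPM in rES passage 30, against 262.2 and 257.5 CPM in ESC (-1.49 ± 0.04), while the cytosolic Mthfd1 rose slightly (0.23 ± 0.04).

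Endoplasmic reticulum chaperones, the targets of the other branches of the unfolded protein response, did not fall as a list, with 11 of 15 higher, 2 lower and a median of 0.23. Hsp90b1 had 996.7 and 1057.8 CPM in rES passage 30, against 662.0 and 673.2 CPM in ESC (0.62 ± 0.04), and Sdf2l1 had 44.4 and 47 CPM in rES passage 30, against 24.5 and 24.4 CPM in ESC (0.90 ± 0.07). Calr, which encodes calreticulin, was lower (-0.33 ± 0.03), as was Herpud1, which is a target of ATF4 as well as of the other branches, with 26.4 and 28.8 CPM in rES passage 30, against 110.4 and 110.2 CPM in ESC (-2.00 ± 0.06). The 15 ATF4 regulators summed to 1092.1 and 1041.8 CPM in rES passage 30, against 2716.6 and 2693.4 CPM in ESC, and to 962.7 and 942.2 CPM in EpiSC, where feeder markers were high. Feeder markers were also high in MM401 day 3 and MM401 passage 2. There the regulators summed to 2161.6 and 2142.9 CPM and to 1627.4 and 1679.6 CPM. Some of the regulator and supply genes follow the feeder markers. Without such genes 8 of 9 ATF4 regulators and 11 of 13 supply genes were called lower. The part of fibroblast RNA in those kept was not tested.

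**Figure D3:**
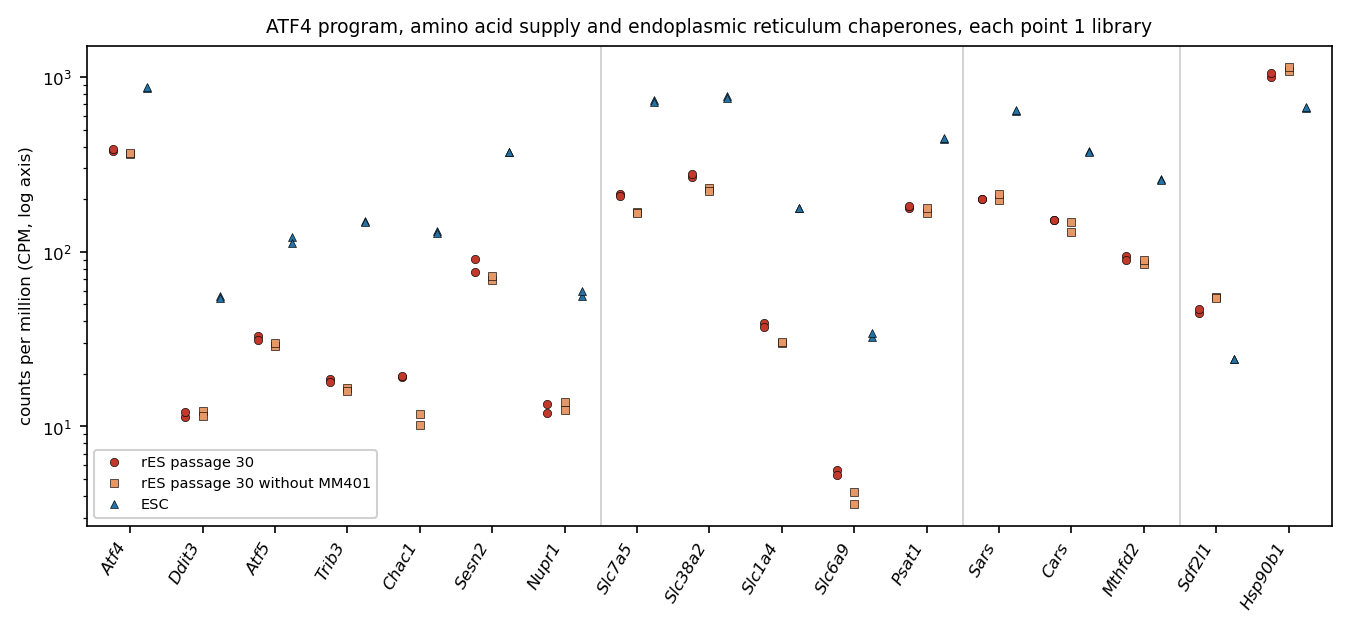
CPM of amino acid response, amino acid supply, synthetase and chaperone genes in each library, on a log axis, for rES passage 30, rES passage 30 without MM401 and ESC (2 points each). Both reverted-line groups lie below ESC for Atf4, Trib3, Chac1, Slc7a5 and Sars, and above ESC for Hsp90b1 and Sdf2l1.

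Promoters of several of these genes hold the same short sequence, which is shown because the genes moved together. The C/EBP-ATF composite element, through which ATF4 acts, was searched as TGATGNAA on both strands in RefSeq promoter windows of the GRCm38.p6 assembly, from 250 bases before to 50 bases after a transcription start. Among genes with a window, 6 of 14 ATF4 regulators held it (Atf3, Trib3, Chac1, Nupr1, Fgf21 and Vldlr), 5 of 14 supply genes (Asns, Pycr1, Slc7a11, Slc1a4 and Got1) and 5 of 12 tRNA synthetases (Aars, Gars, Iars, Tars and Yars). The share over all 27025 genes with a window was 4.51%, and over the 11944 tested genes 2.86%. The lists were built around genes that ATF4 activates, so a share above these comes from that choice and is not a result. Members without a match fell too, since 14 of 15 regulators, 16 of 18 supply genes and 18 of 20 synthetases fell. In the stretches below, each on the strand of its gene, capitals mark the match, which is the reverse complement of the searched letters. They lie at chr2:119351024-119351081 (plus strand) for Chac1, chr7:126625548-126625605 (minus) for Nupr1, chr1:191183411-191183468 (minus) for Atf3, chr19:27216795-27216852 (plus) for Vldlr and chr3:50443628-50443685 (minus) for Slc7a11.
Chac1: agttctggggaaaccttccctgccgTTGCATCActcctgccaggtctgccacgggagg
Nupr1: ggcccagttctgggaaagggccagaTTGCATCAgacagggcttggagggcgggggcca
Atf3: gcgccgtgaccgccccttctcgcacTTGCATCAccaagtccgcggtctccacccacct
Vldlr: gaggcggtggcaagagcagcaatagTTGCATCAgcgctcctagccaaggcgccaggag
Slc7a11: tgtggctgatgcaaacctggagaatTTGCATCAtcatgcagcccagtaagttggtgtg
Of the 8 marked letters the search fixed all but the N, which is the same letter in all 5 stretches. The match starts 193, 110, 110, 200 and 47 bases before the annotated start of the gene in this order. The stretches come from the called genes with the largest differences among those with a match before the start. A stretch of Fgf21 found in this way is not printed. Slc7a11, the cystine transporter, holds a second match, on the other strand and left in lower case in the printed stretch. Nupr1, a stress-induced chromatin protein, had 12 and 13.4 CPM in rES passage 30, against 56.1 and 60 CPM in ESC (-2.19 ± 0.08). Slc7a11 had 5.08 and 3.84 CPM in rES passage 30, against 13.2 and 13.4 CPM in ESC (-1.57 ± 0.14). A match is a description of these letters and not a binding site. Got1 and Asns hold one and differed little from ESC (0.060 ± 0.03, not called, and -0.10 ± 0.03). With a correction for GC content Got1 was called higher (0.186), and Asns lost its call with that correction (-0.056) and without either ESC library (-0.096 without replicate 1 and -0.095 without replicate 2).

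Sterol and fatty acid synthesis genes were higher in the reverted line than in ESC, but not than in EpiSC. Of 22 tested cholesterol genes 20 rose (9 at least 2-fold), none fell, and the median log2 fold change was 0.84. Fdft1, which makes squalene, had 142.2 and 149.7 CPM in rES passage 30, against 57.3 and 56 CPM in ESC (1.36 ± 0.05), and Dhcr7, of the last reduction step, had 81.3 and 82.4 CPM in rES passage 30, against 28.8 and 28.6 CPM in ESC (1.51 ± 0.05). Stard4, a sterol carrier, rose most, with 34.1 and 40.6 CPM in rES passage 30, against 8.86 and 8.99 CPM in ESC (2.06 ± 0.10). For Lss and Ebp no difference was detected. The list summed to 2748.8 and 2745.6 CPM in rES passage 30, against 1654.1 and 1657.2 CPM in ESC. In EpiSC it summed to 2865.1 and 2841.8 CPM, and in MM401 day 3 to 2228.9 and 2194.8 CPM. Hmgcs1 is listed at 0 in every library and was not tested. Srebf2, which encodes the master regulator of these genes, had 452.7 and 411.2 CPM in rES passage 30, against 324.6 and 326.5 CPM in ESC (0.41 ± 0.04). Of 12 fatty acid genes 11 rose, none fell and the median was 1.01. They summed to 3866.3 and 3835.8 CPM in rES passage 30, against 2361.4 and 2347.4 CPM in ESC. In EpiSC they summed to 5074.4 and 5069.6 CPM, and in MM401 day 3 to 2517.4 and 2480.7 CPM. Scd1, a desaturase, had 272.7 and 285.8 CPM in rES passage 30, against 80.2 and 80.7 CPM in ESC (1.79 ± 0.04), and Elovl6, an elongase, had 333.1 and 343.1 CPM in rES passage 30, against 124.0 and 124.4 CPM in ESC (1.44 ± 0.04). For Srebf1, the regulator of this branch, no difference was detected (0.069 ± 0.04), though it was called higher after correction for GC content (0.205) and without rES passage 30 replicate 2 (0.126). The sterol response element TCACNCCAC, searched in the same way, was found in 1 of 16 cholesterol genes, the untested Hmgcs1, and in 0 of 9 fatty acid genes with a window, against 1.44% of all genes.

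Glucose transporters were higher in the reverted line, the other genes of energy metabolism were split, and ribosomal protein genes were more often lower than higher. Slc2a3 had 2853.7 and 2961.6 CPM in rES passage 30, against 1406.5 and 1408.4 CPM in ESC (1.05 ± 0.03), and Slc2a1 had 1149.0 and 1083.9 CPM in rES passage 30, against 503.6 and 509.3 CPM in ESC (1.14 ± 0.03). In the glycolysis list as a whole 10 of 21 genes rose, 7 fell and the median was 0.0. Eno2 rose (1.68 ± 0.05), with 132.3 and 144.0 CPM in rES passage 30, against 44.7 and 41.4 CPM in ESC, while Pkm fell slightly (-0.31 ± 0.04). Respiratory chain genes numbered 25 higher and 32 lower of 82 (median -0.04), cytosolic ribosomal protein genes 10 higher and 43 lower of 79 (median -0.3) and mitochondrial ones 14 higher and 28 lower of 76 (median -0.08). Single ribosomal protein genes with large differences, such as Rpl29 at 1.11 and 1.02 CPM in rES passage 30, against 56.4 and 52.8 CPM in ESC, have many near-identical copies and are uncertain.

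Cell cycle genes leaned to higher levels. In the mitosis list 17 of 18 rose (5 at least 2-fold), none fell and the median was 0.77. The list summed to 4940.0 and 5046.4 CPM in rES passage 30, against 2751.6 and 2731.0 CPM in ESC. In EpiSC it summed to 4439.1 and 4428.0 CPM, and in MM401 passage 2 to 3046.1 and 3094.8 CPM. Top2a, the mitotic topoisomerase, had 1185.2 and 1225.4 CPM in rES passage 30, against 525.8 and 529.6 CPM in ESC (1.19 ± 0.03). Cdk1 had 338.7 and 341.5 CPM in rES passage 30, against 167.3 and 169.3 CPM in ESC (1.01 ± 0.04), and the checkpoint kinase Bub1 had 328.2 and 364.4 CPM in rES passage 30, against 164.0 and 166.2 CPM in ESC (1.07 ± 0.05). Cdc20, which activates the anaphase-promoting complex, differed least among those called, with 297.1 and 288.7 CPM in rES passage 30, against 251.4 and 243.6 CPM in ESC (0.24 ± 0.04). In the replication list 14 of 20 rose and 2 fell, with a median of 0.33, and the X-linked Pola1 rose most, with 270.1 and 274.2 CPM in rES passage 30, against 88.1 and 90.6 CPM in ESC (1.61 ± 0.04). In the G1 and p53 list 9 of 14 fell and 4 rose, with a median of -0.45. Trp53 had 247.7 and 243.0 CPM in rES passage 30, against 400.0 and 394.0 CPM in ESC (-0.69 ± 0.04), its target Cdkn1a, the p21 gene, had 135.8 and 137.2 CPM in rES passage 30, against 271.6 and 271.3 CPM in ESC (-0.99 ± 0.04), and Ccnd3, the cyclin D of naive cells, rose, with 492.3 and 445.1 CPM in rES passage 30, against 248.5 and 243.4 CPM in ESC (0.93 ± 0.04).

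Germ line genes were higher in most cases, from low levels. Of 23 listed, 22 matched a row and were tested, 14 rose (12 at least 2-fold), 5 fell and the median log2 fold change was 1.20. Stra8, which licenses meiotic entry, had 11.3 and 10.7 CPM in rES passage 30, against 0.226 and 0.145 CPM in ESC (5.86 ± 0.31). Dazl, an RNA-binding protein of germ cells, had 86.2 and 100.8 CPM in rES passage 30, against 14.1 and 14 CPM in ESC (2.73 ± 0.08). Ddx4, the Vasa helicase gene, had 24.9 and 25.3 CPM in rES passage 30, against 4.75 and 6.33 CPM in ESC (2.18 ± 0.11). ESC levels of Stra8 were close to the floor, while the reverted line held about 11 CPM in both libraries. Meiotic chromosome genes followed. Sycp1, of the synaptonemal complex, had 7.21 and 7.79 CPM in rES passage 30, against 1.36 and 1.06 CPM in ESC (2.62 ± 0.22), Rec8, a meiotic cohesin, had 14.3 and 14.1 CPM in rES passage 30, against 2.4 and 3.04 CPM in ESC (2.39 ± 0.16), and Smc1b, another cohesin subunit, had 41 and 39.9 CPM in rES passage 30, against 16 and 14.9 CPM in ESC (1.39 ± 0.08). Not all moved this way. Hormad1, which monitors chromosome axes, was lower, with 11.3 and 11.1 CPM in rES passage 30, against 22.1 and 21 CPM in ESC (-0.95 ± 0.10), and the X-linked homeobox genes Rhox6 and Rhox9 were lower as well (-0.81 ± 0.12 and -0.98 ± 0.13).

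Promoters of germ line genes often hold the E-box CACGTG, which is bound by MAX heterodimers, among them the MGA and MAX pair of a variant Polycomb repressive complex 1. It was found in 9 of 19 germ line genes with a RefSeq window (Ddx4, Sycp1, Sycp3, Tdrd1, Taf7l, Slc25a31, Stk31, Hormad1 and Brdt), against 8.09% of all genes with a window and 11.3% of the tested ones. The cholesterol list held it in 4 of 16 genes (Hsd17b7, Sc5d, Dhcr7 and Insig1). The motif is its own reverse complement, so both strands give the same matches. The stretches below (GRCm38.p6, on the strand of the gene) are shown for 4 genes that rose, with the E-box in capitals. They lie at chr3:102936164-102936219 (minus strand) for Sycp1, chrX:134476509-134476564 (minus) for Taf7l, chr6:49395459-49395514 (plus) for Stk31 and chr13:112652311-112652364 (minus) for Ddx4.
Sycp1: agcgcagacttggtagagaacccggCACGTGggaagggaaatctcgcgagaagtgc
Taf7l: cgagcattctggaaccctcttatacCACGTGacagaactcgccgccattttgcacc
Stk31: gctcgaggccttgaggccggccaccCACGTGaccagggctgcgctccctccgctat
Ddx4: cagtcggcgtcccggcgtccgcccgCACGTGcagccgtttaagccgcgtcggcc
In this order the E-box starts 94, 49, 55 and 29 bases before the annotated start. Taf7l, a germ cell subunit of TFIID, had 11.3 and 12.1 CPM in rES passage 30, against 2.44 and 1.79 CPM in ESC (2.46 ± 0.20), and Stk31 had 12.5 and 11.9 CPM in rES passage 30, against 2.58 and 2.13 CPM in ESC (2.37 ± 0.16). Of the 9 genes with a match 6 rose, 2 fell (Sycp3 and Hormad1) and 1 was not called. The whole list had a like share, with 14 of 22 higher (63.6%) and 5 lower. Sycp3 lost its call without replicate 1 of either group (-0.20 without that of rES passage 30 and -0.26 without that of ESC). Subunits of that complex were Mga at 572.7 and 586.5 CPM in rES passage 30, against 338.1 and 356.7 CPM in ESC (0.74 ± 0.04), L3mbtl2 at 240.2 and 238.7 CPM in rES passage 30, against 329.6 and 323.2 CPM in ESC (-0.45 ± 0.04), and Pcgf6 at 62.9 and 64.8 CPM in rES passage 30, against 74.6 and 72.6 CPM in ESC (-0.21 ± 0.06). For Max no difference was detected (-0.079 ± 0.04).

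Genes of the cleavage stage embryo and oocyte that could be measured were mostly higher. Of 22 listed only 12 passed the filter on low counts, most of them through the group in which they are high, so their count and median describe the measured members and not the list. Of these 10 rose, 2 fell and the median log2 fold change was 3.87, or 3.65 with Zscan4e at its bound. Zscan4d, of the 2-cell embryo, had 8.11 and 10.3 CPM in rES passage 30, against 0.904 and 0.58 CPM in ESC (3.62 ± 0.31). Zfp352 had 6.14 and 5.5 CPM in rES passage 30, against 0.136 and 0.387 CPM in ESC (4.49 ± 0.38), and Tmem92 had 40.9 and 46.7 CPM in rES passage 30, against 1.04 and 1.45 CPM in ESC (5.14 ± 0.17). Obox6, an oocyte-specific homeobox family member, had 33.1 and 36.2 CPM in rES passage 30, against 0.949 and 0.87 CPM in ESC (5.24 ± 0.17). Zscan4e had 0.64 and 0.584 CPM in rES passage 30 and no count in either ESC library, which makes it at least 8.73-fold higher at a floor of 3 counts over the group. Those that fell were the oocyte genes Gdf9 and Zp3. Gdf9 had 0.725 and 1.02 CPM in rES passage 30, against 4.66 and 4.74 CPM in ESC (-2.44 ± 0.29). Zscan4, Obox and Pramel genes have near-identical copies, so the split of reads among family members is uncertain.

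**Figure D4:**
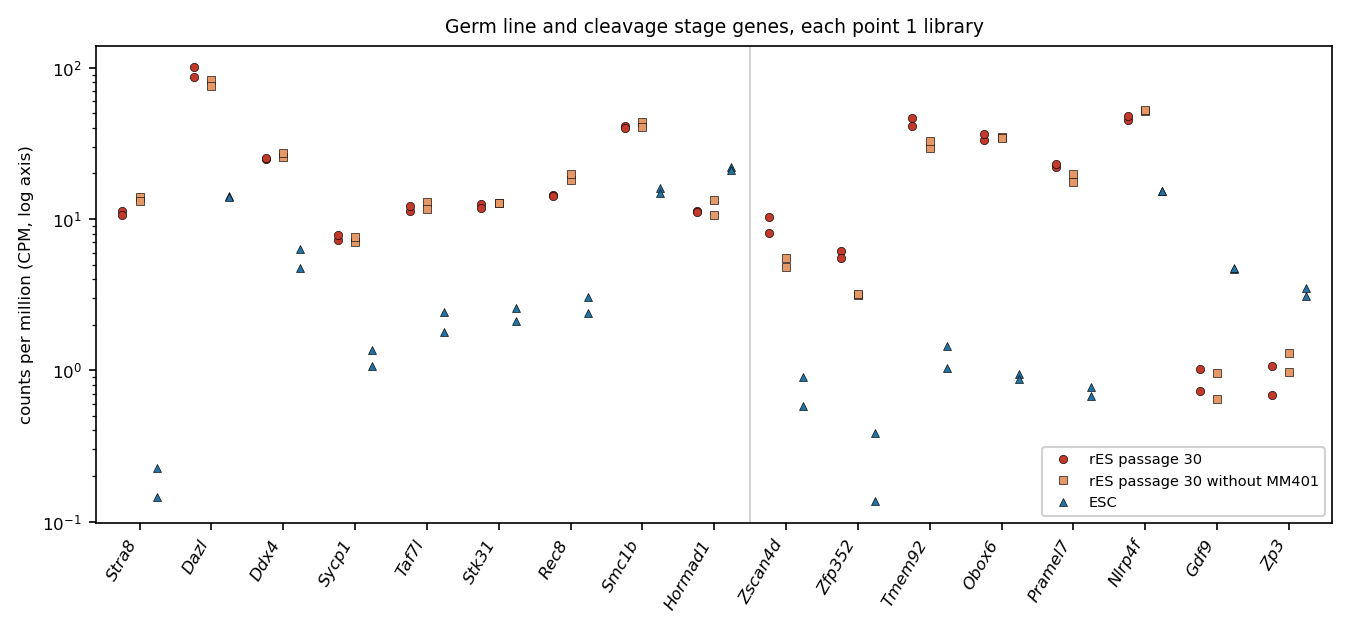
CPM of germ line genes and of cleavage stage and oocyte genes in each library, on a log axis, for rES passage 30, rES passage 30 without MM401 and ESC (2 points each). Stra8, Dazl, Obox6, Tmem92 and Zfp352 lie far above ESC in both reverted-line groups, and Hormad1, Gdf9 and Zp3 lie below ESC.

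Imprinted genes, which are expressed from 1 parental allele, were mostly lower. The counts do not separate the alleles. Of 14 tested genes expressed from the maternal allele, 12 fell (6 at least 2-fold), none rose and the median log2 fold change was -0.89. H19 had 143.2 and 140.6 CPM in rES passage 30, against 785.2 and 794.2 CPM in ESC (-2.48 ± 0.04), and Grb10, a growth factor receptor adaptor, had 42.3 and 44.6 CPM in rES passage 30, against 180.5 and 180.6 CPM in ESC (-2.06 ± 0.05). On chromosome 12, Meg3 had 269.7 and 261.4 CPM in rES passage 30, against 582.9 and 581.8 CPM in ESC (-1.13 ± 0.04), and its neighbours Rian and Mirg fell with it (-0.81 ± 0.04 and -1.40 ± 0.07). These loci were lower without being silent. Of 18 genes expressed from the paternal allele, 11 fell (6 at least 2-fold), 5 rose (3 at least 2-fold) and the median was -0.38. Igf2 had 62.3 and 64 CPM in rES passage 30, against 130.8 and 130.4 CPM in ESC (-1.05 ± 0.04), and Mest had 37.4 and 37.4 CPM in rES passage 30, against 110.7 and 115.0 CPM in ESC (-1.59 ± 0.06). Peg12 rose instead, with 9.09 and 8.03 CPM in rES passage 30, against 2.26 and 1.79 CPM in ESC (2.08 ± 0.18), as did the zinc finger gene Plagl1, with 66 and 64.2 CPM in rES passage 30, against 30.9 and 30.2 CPM in ESC (1.09 ± 0.06). Zfp57, which guards imprints in ESC, had 639.5 and 634.4 CPM in rES passage 30, against 396.4 and 388.6 CPM in ESC (0.70 ± 0.04). H19 and Meg3 were also high in EpiSC (729.3 and 689.4 CPM on average), where feeder markers were high, and the part of fibroblast RNA was not tested. Without genes that follow the feeder markers, 8 of 9 maternal genes were called lower.

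MHC class II genes were more often higher, from low levels. Of 11 listed, 10 were tested, 6 rose (each at least 2-fold) and none fell, with a median of 1.51. H2-Eb1 had 42.7 and 46 CPM in rES passage 30, against 16.7 and 16.8 CPM in ESC (1.40 ± 0.08), and H2-Ab1 had 14.9 and 14.5 CPM in rES passage 30, against 1.4 and 1.64 CPM in ESC (3.27 ± 0.20). Cd74, the invariant chain, had 3.58 and 3.94 CPM in rES passage 30, against 1.18 and 0.967 CPM in ESC (1.80 ± 0.28). H2-Aa, the α chain that pairs with the product of H2-Ab1, was about 1 CPM in all 4 libraries and was not called. The other called members were all under 2 CPM, and 3 members in place of 6 were called without ESC replicate 2. Interferon and MHC class I genes went the other way, with 12 of 21 lower, 4 higher and a median of -0.35. B2m had 102.5 and 109.3 CPM in rES passage 30, against 179.5 and 182.4 CPM in ESC (-0.77 ± 0.05), and H2-T23 had 0.256 and 0.146 CPM in rES passage 30, against 5.61 and 5.46 CPM in ESC (-4.74 ± 0.36). Of 8 such genes left without those that follow the feeder markers, 1 was lower and 3 were higher. Of the 4 that rose in the whole list, the RNA sensor gene Ifih1 differed most (2.10 ± 0.22), with 5.33 and 6.33 CPM in rES passage 30, against 1.49 and 1.21 CPM in ESC.

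Clustered protocadherins, which give neurons their surface identity, and Hox genes had low levels in both groups. Of 59 listed protocadherins 44 passed the filter on low counts, 22 fell, none rose and the median was -1.16. The filter ran over all 14 libraries, and the list was highest in MM401 passage 2, at 343.0 and 307.1 CPM, outside the comparison. Pcdhgc3 had 22.4 and 20.8 CPM in rES passage 30, against 44.7 and 45.7 CPM in ESC (-1.06 ± 0.07). Of 37 tested Hox genes 14 fell and 6 rose. Both lists move with the feeder markers. Without the genes that follow these, 7 of 25 protocadherins were lower, and 6 of 16 Hox genes were called, all higher.

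The X-linked genes as a set had a higher median than those of any autosome. The median log2 fold change of its 608 tested genes was 0.543, against -0.024 for the 15548 autosomal genes, and 56.6% of X-linked genes rose while 20.6% fell, beside 35.3% and 35.8% of all genes. Autosomal medians ran from -0.138 on chromosome 7 to 0.067 on chromosome 9. Among the 332 X-linked genes of at least 10 CPM the median was 0.763, with 76.2% higher and 16.6% lower. Either rES passage 30 library gave nearly the same X median when set against the ESC libraries, at 0.577 and 0.566. The rise was not uniform along the chromosome. In 12 consecutive windows of 50 tested genes, the first, from Nudt11 to Xk, had a median of -0.367 with 10 genes higher and 27 lower, and the second, from Cybb to Dock11, had -0.012. The other 10 had medians from 0.341 (Enox2 to Ldoc1) to 0.992 (Gm41 to Med12, 36 higher and 4 lower). None of 300 autosomal windows reached the X median of 0.543. The lowest autosomal window was on chromosome 18, from Tmco6 to Pcdhgb8, at -0.65, which holds many of the protocadherins.

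**Figure D5:**
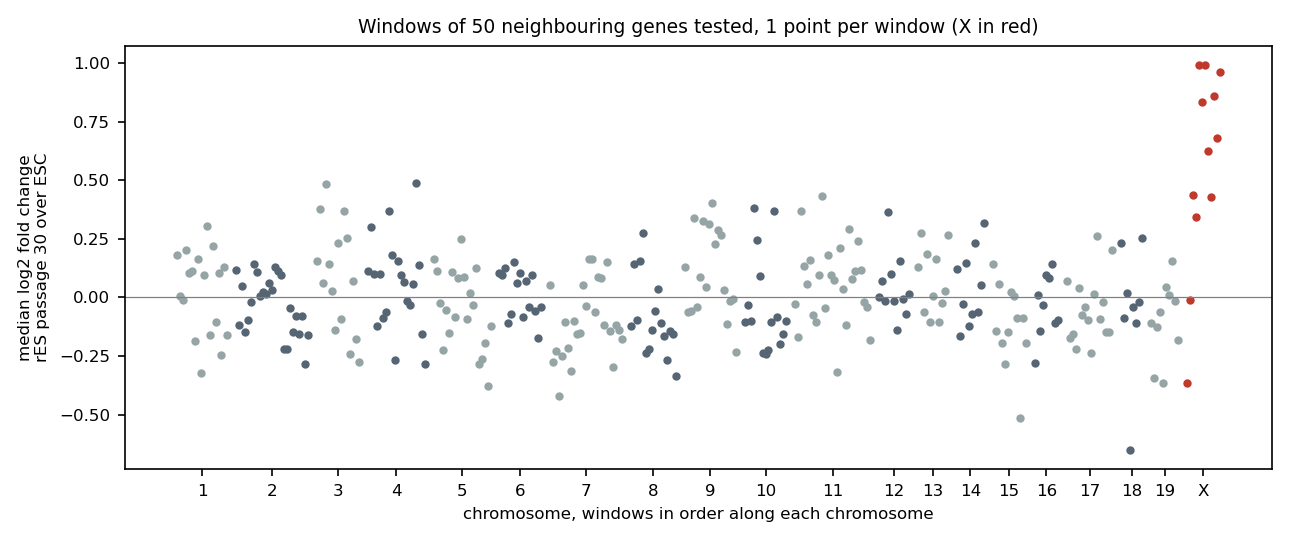
Median log2 fold change, rES passage 30 over ESC, of 312 windows of 50 consecutive tested genes ordered along the chromosomes, with chromosome X in red. Of the 12 X windows 10 lie between 0.341 and 0.992, and the 300 autosomal windows lie between -0.65 and 0.487.

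Single X-linked genes followed this pattern with exceptions. Huwe1, a ubiquitin ligase gene, had 1839.1 and 1847.2 CPM in rES passage 30, against 1195.3 and 1180.5 CPM in ESC (0.63 ± 0.03). Slc6a8, the creatine transporter, had 779.5 and 761.0 CPM in rES passage 30, against 200.9 and 203.1 CPM in ESC (1.93 ± 0.03), and Nsdhl, of sterol synthesis, had 116.1 and 110.5 CPM in rES passage 30, against 36.6 and 34.2 CPM in ESC (1.68 ± 0.05). Porcn, which acylates Wnt proteins, and the amino acid transporter Slc7a3 were lower instead (-0.79 ± 0.06 and -0.69 ± 0.04). Xist, the long noncoding RNA that silences 1 X chromosome in female cells after the naive state, had 48.2 and 50.1 CPM in rES passage 30, against 30.2 and 31.6 CPM in ESC (0.67 ± 0.12, adjusted p = 0.00034). Both groups lay far below the 622.0 CPM of EpiSC. Tsix, its antisense repressor in the mouse, had 1.58 and 0.779 CPM in rES passage 30, against 1.4 and 1.26 CPM in ESC, and was not called (-0.15 ± 0.35). Reads of these overlapping genes cannot be told apart without strand. The 4 Y-linked genes tested (Ddx3y, Eif2s3y, Uty and Kdm5d, chosen after their values were seen) were all lower, summing to 8.23 and 8.47 CPM in rES passage 30, against 27.9 and 29.3 CPM in ESC, beside the fall in feeder markers, whose part was not tested. The labels do not give the number of X chromosomes in either line.

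The genes with the largest fold differences at 10 CPM or more came in part from groups already named. Among the 12 largest falls, Gkn2, a gastrokine gene, had no count in either rES passage 30 library, against 15.1 and 14.5 CPM in ESC, and was at least 218-fold lower. Gadl1, an acidic amino acid decarboxylase, had 0.0427 and 0 CPM in rES passage 30, against 40.5 and 41.7 CPM in ESC. Cxcl12, a chemokine of stromal cells, had 1.54 and 1.51 CPM in rES passage 30, against 84.8 and 87.6 CPM in ESC (-5.82 ± 0.11). The others included Cubn, Esrp1, the macrophage gene Fcrls, and Itih2 and Enpep, with both reverted-line libraries under 1 CPM for the last 3. Among the 12 largest rises, Tspo2 had 12.7 and 13.4 CPM in rES passage 30, against 0.0452 and 0.0483 CPM in ESC (8.04 ± 0.43), and Chit1 had 9.98 and 11.5 CPM in rES passage 30, against 0.271 and 0.193 CPM in ESC (5.50 ± 0.50). The X-linked transcript AU015836 had 357.2 and 377.9 CPM in rES passage 30, against 16.5 and 14.3 CPM in ESC (4.57 ± 0.06). Stra8, Obox6, Tmem92 and Pramel7 were also among them, so that 4 of the 12 belong to the germ line and cleavage stage lists. By absolute difference in CPM the matrix genes Fn1, Col4a1, Lama1 and Lamc1 were among the 10 largest falls, with Fn1 at 2409.8 and 2404.3 CPM in rES passage 30, against 6500.3 and 6472.7 CPM in ESC (-1.43 ± 0.03), and Sec14l1 was among the 10 largest rises, with 823.3 and 800.7 CPM in rES passage 30, against 201.2 and 200.1 CPM in ESC (2.02 ± 0.04).

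The line kept at passage 30 without MM401 was much closer to the line with it than ESC was, by the number of genes past 2-fold. With MM401 against without, the same test called 3200 of 16247 genes (19.7%), 1511 higher (9.3%) and 1689 lower (10.4%), but only 44 at least 2-fold (0.271%), 27 higher (0.166%) and 17 lower (0.105%). Which direction held more calls depended on the scaling, with 1705 higher and 1443 lower by RLE size factors, and 1991 genes were called without replicate 2 of the line without MM401. The 10th and 90th percentiles of the log2 fold change were -0.291 and 0.369. Both comparisons share the rES passage 30 libraries, so their values are given side by side. Several genes that stood far from ESC were not called here. Klf4 had 726.7 and 664.0 CPM in rES passage 30, against 682.0 and 647.0 CPM without MM401 (0.066 ± 0.04, not called), Dnmt3b had 38.9 and 36 CPM in rES passage 30, against 35.9 and 35.2 CPM without MM401 (0.077 ± 0.06, not called), Trib3 had 18.6 and 17.9 CPM in rES passage 30, against 16.6 and 15.9 CPM without MM401 (0.17 ± 0.08, not called), and Stra8 had 11.3 and 10.7 CPM in rES passage 30, against 14 and 13.2 CPM without MM401 (-0.31 ± 0.15, not called). The X-linked median was 0.061 with against without MM401. Feeder markers summed to 4085.9 and 4060.5 CPM in rES passage 30 and to 3310.9 and 3364.8 CPM without MM401.

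Some genes did differ with the inhibitor. In the MLL and SET1 list 9 of 17 were higher with MM401 than without, none was lower and the median log2 fold change was 0.15. Kmt2a had 165.9 and 164.8 CPM in rES passage 30, against 110.1 and 115.5 CPM without MM401 (0.55 ± 0.05), Setd1b had 106.1 and 97 CPM in rES passage 30, against 65.4 and 63.2 CPM without MM401 (0.66 ± 0.05), and Kmt2d had 284.8 and 253.7 CPM in rES passage 30, against 192.7 and 193.4 CPM without MM401 (0.48 ± 0.04). Wdr5 was not called (-0.082 ± 0.03). Respiratory chain genes ran the other way, with 44 of 82 lower with MM401, none higher and a median of -0.17, as did mitochondrial ribosomal proteins, with 29 of 76 lower, none higher and a median of -0.14 (19 of 76 lower without rES passage 30 replicate 2). Cox7b, of cytochrome c oxidase, had 202.0 and 198.5 CPM in rES passage 30, against 247.5 and 219.4 CPM without MM401 (-0.22 ± 0.04). Chac1 was higher with MM401, with 19.3 and 19.5 CPM in rES passage 30, against 10.2 and 11.8 CPM without MM401 (0.82 ± 0.09), as was Lef1, with 15.1 and 18.2 CPM in rES passage 30, against 10.3 and 9.2 CPM without MM401 (0.76 ± 0.10). H19 was lower with it, with 143.2 and 140.6 CPM in rES passage 30, against 205.3 and 218.8 CPM without MM401 (-0.58 ± 0.04), as was Gadd45b, with 30.3 and 31 CPM in rES passage 30, against 48.7 and 50.7 CPM without MM401 (-0.70 ± 0.06). For H19 this was the same direction as against ESC, and for Chac1 and Lef1 the opposite one.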

How the data were processed

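Total RNA was sequenced single end from TruSeq libraries after RNeasy extraction with DNase, per the labels' protocols. The authors deposited whole-number read counts per gene in 1 table of 24015 rows, and TopHat2, Subread, DESeq and the mm9 build are named in the submitters' processing notes without versions. For the annotation, strand and multi-mapping reads, the settings were not given in the sources used here. Samples were grouped by their labels. 2 columns of per-sample values match no sample and were not used. 27 gene names had been turned into dates, and their rows stayed in the fit under those names.

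The counts of all 14 libraries were fitted with edgeR 4.0.16 (R 4.3.3, limma 3.58.1), with filterByExpr, TMM factors, 1 mean per group and the robust quasi-likelihood F test, since the fit then shares 1 estimate of the spread. Genes were called at a Benjamini-Hochberg adjusted p under 0.05 over all genes tested, the standard error is the log2 fold change divided by the root of F, and CPM use TMM-scaled library sizes. The code was tested on simulated data. DESeq2 1.42.0, other scalings and filters, a GC correction, a replicate block and leaving out each library were alternatives. The labels do not say that a replicate number marks a shared batch, and the fit has no block. Library totals ran from 20831588 to 116086115 counts over the series. They limit the precision for genes of a few counts, and floors of 3 counts cover counting error only.

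Named genes are a fixed panel, the 12 largest called changes in each direction among genes of at least 10 CPM, the 10 largest differences in CPM in each direction, members of fixed lists, and in lists given by a pattern up to 4 called members of at least 5 CPM. The libraries compared and the lists were chosen with earlier results of these data known. RefSeq promoter windows (GRCm38.p6) were matched by symbol.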

Additional observations from a re-analysis of the deposited data

How the results depend on the processing

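Calls rest on duplicates and are read with their size. The count of 11554 genes called against ESC lay between 11164 (DESeq2) and 11863 (without the 4 deeper libraries) under the other scalings, filters and fits of all genes, was 9585 without the genes that follow the feeder markers, between 10511 and 10733 when 1 library was left out, and 3779 at 2-fold or more. With a replicate block 11520 were called. With against without MM401 the 3200 calls became 3180 with the replicate block and 3220 with the numbers crossed, an alternative chosen after seeing the data, as was leaving out Rn45s or the deeper libraries. Deviations of same-numbered libraries had correlations of 0.017 (rES passage 30 and ESC) and -0.114 (with and without MM401). No pairing by number was detected, which does not exclude a shared batch. DESeq2 called 1568 higher and 1345 lower with against without MM401. The count of that comparison was 2024 at an adjusted p under 0.01 and ranged from 1991 to 2751 when 1 library was left out, lowest without replicate 2 of the line without MM401. Correction for GC content gave 5901 higher and 5580 lower against ESC.

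Of 723 list counts under alternatives, 711 were within 1.5 times of the main count. Leaving out the genes that follow the feeder markers, which also leaves fewer genes tested, gave called members of 8 for LIF and STAT3, 7 for retinoic acid, 2 for feeder fibroblast, 9 for ATF4 regulators, 11 for amino acid supply, 3 for mesenchymal, 4 for interferon and MHC class I, 6 for Hox and 7 for protocadherins. MHC class II ranged from 3 to 6 when 1 library was left out. For mitochondrial ribosomal proteins with against without MM401 the count was 19 at an adjusted p under 0.01 and 19 to 26 when 1 library was left out, for the respiratory chain 34 to 45 and for MLL and SET1 complexes 8 to 10. Among genes of at least 10 CPM the median log2 fold change was 0.763 on X and 0.004 on autosomes. Pou5f1 had a log2 fold change of -0.028, below 0 in place of above it, without the genes that follow the feeder markers. The move was not particular to Pou5f1. Fgf4 (-0.17), Max (-0.204) and Ctnnb1 (-0.18) also lay lower in that setting than in the main fit. That setting computes its scaling factors anew from the genes left. The cause of these shifts was not tested. Of 3521 values of named genes under alternatives, 3483 kept their direction and their side of the threshold. Klf2 lost its call in a fit of the 4 libraries alone (-0.329). Genes of a few counts, as in the MHC class II and cleavage stage lists, are limited by depth.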
